A study of Mus musculus with 12 samples.

Results

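Haemoglobin and red cell genes are described here in mouse fat grafts, as 6 of the 19547 genes measured: Hba-a1, Hba-a2, Hbb-bs, Hbb-bt, Alas2 and Slc4a1. They were chosen by gene symbol, and the near-identical alpha globin copies Hba-a1 and Hba-a2 were also summed. All 6 passed the filter on low counts that left 18551 genes for testing. Adipose tissue grafts were collected at 8 weeks from C57BL/6 mice that were wild type and 16 weeks old, and RNA-seq was run on 12 libraries in 3 groups of 4. The control group is unsupplemented fat grafts, the CAL group is grafts to which ASC (in common usage, stem or stromal cells from adipose tissue) were added, and the CAL_Dll4i group is grafts with ASC and Dll4 inhibition. All groups share the strain, genotype, age and grafting time. The sources used here do not give how Dll4 was inhibited or whether each sample is a separate animal, so p-values cover no more than the variation among these samples.

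Haemoglobin, the oxygen carrier of red cells, is a tetramer built from alpha and beta globin chains that each hold a haem group. Mature mammalian red cells have no nucleus, and RNA from globin genes is carried in blood mainly by reticulocytes, the youngest circulating red cells. In a bulk tissue sample these transcripts can come with the blood that the tissue holds, and their source was not tested here. Alas2 is the erythroid enzyme of the first step of haem synthesis, and Slc4a1 is band 3, the anion exchanger of the red cell membrane. For all of them, fewer cells and less RNA per cell cannot be told apart in bulk RNA.

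Positions are from RefSeq on GRCm38.p6, in which 6 of 6 symbols were found by gene ID. Hba-a1 lies on chr11:32283672-32284486 and Hba-a2 on chr11:32296492-32297310, both on the plus strand with 12005 bases between them, and each has 3 exons. Hbb-bs lies on chr7:103826523-103827928 and Hbb-bt on chr7:103812524-103813923, both on the minus strand with 12599 bases between them. Alas2 lies on chrX:150547417-150570622 on the plus strand, where Apex2 and Mir3620 overlap it on the other strand. Slc4a1 lies on chr11:102348820-102365281 on the minus strand. The sources used here do not give whether the counting used strand, so reads of Alas2 and of its antisense neighbours may not be fully separated.

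The coding sequences within each globin pair are almost the same, which is shown here because it limits how far reads can be assigned to a copy. Over 426 coding bases Hba-a1 and Hba-a2 differ at 1 position, C381T, and over 441 coding bases Hbb-bs and Hbb-bt differ at 1 position, C417T. Positions count from 1 at the start codon, the first-named gene's base comes first, and the identity is 99.77% in both pairs. The stretches that end at the difference are, 5′ to 3′ from GENCODE transcripts of GRCm38, with the differing base in capitals:
Hba-a1: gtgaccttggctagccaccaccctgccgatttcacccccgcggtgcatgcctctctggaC
Hba-a2: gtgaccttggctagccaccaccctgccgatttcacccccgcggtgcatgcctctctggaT
Hbb-bs: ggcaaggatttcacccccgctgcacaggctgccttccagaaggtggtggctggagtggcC
Hbb-bt: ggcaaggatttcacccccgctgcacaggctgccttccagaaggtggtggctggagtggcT
The untranslated parts were not compared. Values of the separate copies are therefore uncertain where reads fall in shared sequence, and sums of the copies do not depend on that split.

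Promoter sequence was found in RefSeq for 5 of the 6 genes (all except Slc4a1), and the 250 bases before the start were searched on both strands for GATAA (the core bound by GATA factors), CCNCNCCC (a form of the CACCC box), CCAAT and TATAA. Whether these motifs bear on the levels in these libraries was not tested. The windows of an alpha gene, a beta gene and the haem enzyme are printed as examples. They are given 5′ to 3′ along the gene on GRCm38.p6, for Hba-a1 chr11:32283422-32283671 (plus strand), for Hbb-bs chr7:103827929-103828178 (minus strand) and for Alas2 chrX:150547167-150547416 (plus strand), with matches to the motifs in capitals:
Hba-a1: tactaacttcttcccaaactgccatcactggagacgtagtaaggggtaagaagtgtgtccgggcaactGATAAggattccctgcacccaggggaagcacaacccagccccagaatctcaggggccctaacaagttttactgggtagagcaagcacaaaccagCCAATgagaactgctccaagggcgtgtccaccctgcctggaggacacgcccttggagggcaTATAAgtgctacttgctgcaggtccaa
Hbb-bs: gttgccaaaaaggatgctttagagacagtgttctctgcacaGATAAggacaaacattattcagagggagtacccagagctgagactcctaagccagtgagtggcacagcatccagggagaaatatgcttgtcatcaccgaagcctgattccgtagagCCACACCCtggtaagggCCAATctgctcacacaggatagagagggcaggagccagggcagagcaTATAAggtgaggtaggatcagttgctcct
Alas2: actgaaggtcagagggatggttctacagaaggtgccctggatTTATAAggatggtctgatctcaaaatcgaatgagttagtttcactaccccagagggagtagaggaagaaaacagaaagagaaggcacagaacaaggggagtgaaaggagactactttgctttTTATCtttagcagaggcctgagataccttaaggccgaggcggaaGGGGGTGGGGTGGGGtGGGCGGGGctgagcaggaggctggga
The window of Hba-a2 is the same as that of Hba-a1 over 247 of 247 compared bases after a shift of 3 bases. Each of the 4 globin windows held GATAA together with a match of CCAAT and a match of TATAA, and all of these were present in 2.83% of the 32851 mouse windows of the same length. CCNCNCCC was found in the windows of Hbb-bs and Hbb-bt and not in those of Hba-a1 and Hba-a2. The Alas2 window held GATAA on the reverse strand, 4 matches of CCNCNCCC on the reverse strand (of which the first 3 overlap) and TATAA in an overlapping match on both strands, but not CCAAT. Singly, GATAA occurred in 22.6% of windows, CCNCNCCC in 45.9%, CCAAT in 33.8% and TATAA in 22.8%. A match describes the letters and not a bound site.

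Depth lay between 55883051 counts (CAL replicate 1) and 70804141 counts (CAL_Dll4i replicate 4). The tissue label was checked on 12 adipocyte genes, all of which were in the table, with summed CPM (counts scaled to a common library size) of 1721 to 4112. Skeletal muscle RNA was present in 3 libraries, where the actin gene of that tissue, Acta1, reached 28.1 CPM (CAL replicate 1), 74.5 CPM (CAL replicate 2) and 127 CPM (CAL_Dll4i replicate 3), against 2.91 CPM or less elsewhere. Dll4, the Notch ligand named in the treatment, had a mean of 4.42 CPM in CAL_Dll4i, 3.72 in CAL and 5.78 in control (edgeR, Benjamini-Hochberg adjusted p = 0.713 for CAL_Dll4i against CAL), and since the way of inhibition is unknown its transcript does not check the label.

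Haemoglobin transcripts were among the more abundant RNAs of these grafts and differed several-fold between libraries of the control and CAL groups. In CPM, the highest library exceeded the lowest 3.91-fold in control, 2.94-fold in CAL and 1.53-fold in CAL_Dll4i for Hba-a1, and 4.76-fold, 4.11-fold and 1.79-fold for Hbb-bs. The 6 genes took from 0.0257% of counts in CAL replicate 3 (95% Wilson interval 0.0253% to 0.0261%) to 0.142% in control replicate 3 (0.141% to 0.142%), intervals that cover counting error only. On the TPM scale, which accounts for transcript length and library size, the mean level over 12 libraries was 923 for Hba-a1, 719 for Hba-a2, 539 for Hbb-bs and 300.4 for Hbb-bt. Alas2 stood at 28.4 TPM and Slc4a1 at 0.80 TPM. By TPM, Hba-a1 ranked 27 among all genes of control replicate 3 and 304 among those of CAL replicate 3.

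The alpha chain genes were high in 5 of the 12 libraries. Hba-a1 stood at 355, 128, 465 and 119 CPM in control replicates 1 to 4, at 257, 298, 101 and 286 CPM in CAL replicates 1 to 4, and at 122, 125, 187 and 135 CPM in CAL_Dll4i replicates 1 to 4. Hba-a2 stood at 276, 100.1, 355 and 91.9 CPM in the controls, at 222, 245, 77.7 and 220.3 CPM in CAL and at 95.3, 94.98, 141 and 103 CPM in CAL_Dll4i. Control replicates 1 and 3 and CAL replicates 1, 2 and 4 were high, the other controls and CAL replicate 3 were low, all 4 CAL_Dll4i libraries lay below the 5 high ones, and the ranges of the 3 groups overlapped. The summed copies had means of 472 ± 302 CPM in control, 427 ± 167 CPM in CAL and 251 ± 52.2 CPM in CAL_Dll4i (SD, n = 4 each).

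The beta chain genes were high in the same 5 libraries, with a somewhat wider range. Hbb-bs stood at 257, 75.2, 316 and 66.4 CPM in the controls, at 172, 210.1, 51.1 and 207 CPM in CAL and at 72.7, 77.9, 130.3 and 83.9 CPM in CAL_Dll4i. Hbb-bt stood at 147, 39.8, 172 and 36.4 CPM in the controls, at 98.9, 118, 26.5 and 111 CPM in CAL and at 38.3, 45.6, 64.2 and 46.0 CPM in CAL_Dll4i. CAL replicate 3 was the lowest library for both, and the groups overlapped. From the highest to the lowest library the fold in CPM was 6.19 for Hbb-bs and 6.48 for Hbb-bt, against 4.59 for Hba-a1 and 4.57 for Hba-a2.

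Alas2 and Slc4a1 varied far more between libraries than the globins did. Alas2 stood at 54.7, 6.64, 85.0 and 6.35 CPM in the controls, at 24.0, 32.5, 3.31 and 36.5 CPM in CAL and at 5.73, 5.24, 10.1 and 7.08 CPM in CAL_Dll4i. Slc4a1 stood at 4.65, 0.369, 4.17 and 0.323 CPM in the controls, at 1.57, 2.33, 0.310 and 2.66 CPM in CAL and at 0.347, 0.598, 0.490 and 0.294 CPM in CAL_Dll4i, which rests on 20 to 278 counts a library. For each gene the same 5 libraries were high, and no CAL_Dll4i library was among them. The highest library exceeded the lowest 25.7-fold for Alas2 and 15.8-fold for Slc4a1.

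**Figure D1:**
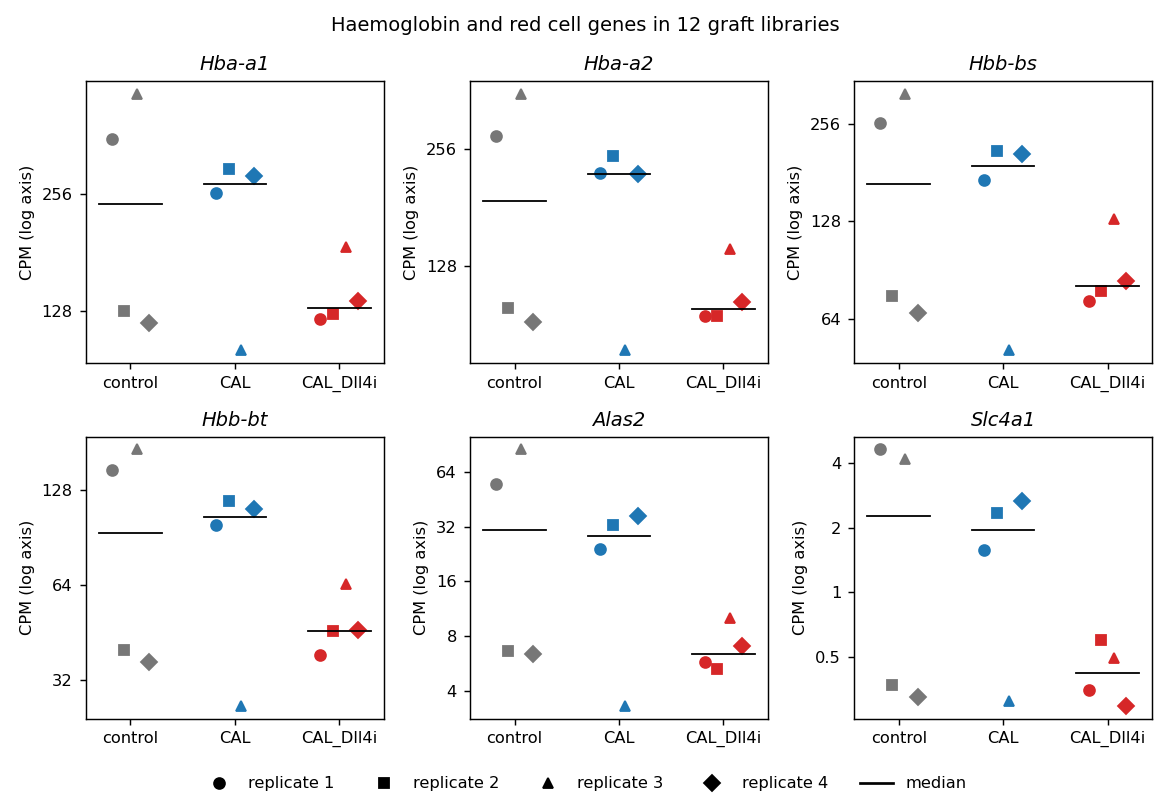
CPM (log axis) of each of the 6 genes in the 12 libraries, by group, with 1 symbol per replicate number and a bar at the group median. In every panel control replicates 1 and 3 and CAL replicates 1, 2 and 4 lie above the other 7 libraries, for example at 257 to 465 CPM against 101 to 187 CPM for Hba-a1.

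The spread between libraries of these genes was large against that of other genes. Over the 12 libraries the SD of log2 CPM was 0.74 for Hba-a1, 0.76 for Hba-a2, 0.88 for Hbb-bs, 0.91 for Hbb-bt, 1.55 for Alas2 and 1.57 for Slc4a1, while the median over all 18551 genes was 0.20. Of all genes tested, 92.5% had a smaller SD than Hba-a1 and 99.0% a smaller SD than Slc4a1. Within groups, the SD of log2 CPM of Hba-a1 was 1.01 in control, 0.74 in CAL and 0.28 in CAL_Dll4i. That of Alas2 was 1.98 in control, 1.62 in CAL and 0.42 in CAL_Dll4i. The median gene had an SD of 0.17 in control, 0.17 in CAL and 0.16 in CAL_Dll4i. Whether the spread differed between groups was not tested.

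The 5 libraries highest for summed globin were the 5 highest for each of the 6 genes. The globin genes make up that sum, so their agreement with it is largely built in, and only Alas2 and Slc4a1 lie outside it. Across all genes tested, 46 of 18551 (0.248%) had the same top 5 libraries, the 6 members included. CAL replicate 3 was the lowest library for all members except Slc4a1, for which CAL_Dll4i replicate 4 was lowest. Of the 3 libraries with skeletal muscle RNA, CAL replicates 1 and 2 were among the 5 high libraries and CAL_Dll4i replicate 3 was the highest of its group for Hba-a1. The other 3 high libraries had Acta1 at 0.436 to 1.67 CPM. The part of muscle RNA in the globin levels of CAL replicates 1 and 2 was not tested.

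The ratio of alpha to beta transcripts varied less between libraries than their totals did. The ratio of alpha to beta globin in TPM was 2.07 ± 0.247 (SD, n = 12) and ran from 1.77 to 2.61. Its group means were 2.06 in control, 2.07 in CAL and 2.06 in CAL_Dll4i. In the libraries high in globin it ran from 1.77 (control replicate 1) to 2.00 (CAL replicate 1). In the others it ran from 1.91 (CAL_Dll4i replicate 3) to 2.61 (CAL replicate 3). Within the alpha pair the ratio of Hba-a1 to Hba-a2 in TPM ran from 1.17 to 1.33, and within the beta pair the ratio of Hbb-bs to Hbb-bt ran from 1.69 to 2.00. Alas2 varied relative to globin and made 3.79 TPM per 1000 TPM of globin in CAL replicate 3 and 19.4 in control replicate 3. The group means of that ratio were 11.7 ± 6.91 in control, 9.43 ± 4.05 in CAL and 5.27 ± 0.572 in CAL_Dll4i (SD, n = 4 each). In the libraries high in globin that ratio ran from 9.57 (CAL replicate 1) to 19.4 (control replicate 3). In the others, which include control and CAL libraries, it ran from 3.79 (CAL replicate 3) to 5.99 (control replicate 4). Slc4a1 ran from 0.0999 to 0.578 TPM per 1000 TPM of globin.

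The largest gap in log2 CPM of alpha globin lay between 328 and 478 CPM. Above it were 5 libraries at 478 to 820 CPM, and below it 7 at 179 to 328 CPM. Such a rule divides any set of libraries, and whether they form clusters was not tested. On the lower side, CAL_Dll4i replicate 3 at 328 CPM also stood apart from the next library at 239 CPM. The relations between members were tested over all 12 libraries and again on the lower side, which held libraries of every group. Over all 12, Pearson r with summed alpha globin (log2 CPM) was 0.994 for summed beta globin, 0.992 for Alas2 and 0.959 for Slc4a1. In the same order, two-sided permutation p was 1e-05, 1e-05 and 5e-05 (100000 permutations that ignore group, adjusted 1.5e-05, 1.5e-05 and 5e-05). The 5 high libraries can drive these values. After the group means were subtracted, r was 0.996, 0.993 and 0.952. The cut was made on alpha globin itself, so the p-values on the lower side describe these 7 libraries only. Within the 7 lower libraries, log2 CPM of summed beta globin followed that of summed alpha globin, with Pearson r = 0.98 (two-sided exact permutation p = 0.000992, Benjamini-Hochberg adjusted over 3 relations 0.00298) and Spearman rho = 0.96 (exact p = 0.00278, adjusted 0.00833). For Alas2, r was 0.92 (exact permutation p = 0.0181, adjusted 0.0271) and rho was 0.86 (exact p = 0.0238, adjusted 0.0357). For Slc4a1, at 20 to 38 counts in these libraries, r was 0.46 (exact permutation p = 0.308, adjusted 0.308) and rho was 0.32 (exact p = 0.498, adjusted 0.498). Without CAL_Dll4i replicate 3 and CAL replicate 3, the farthest from the median, r was 0.84 for beta globin, 0.58 for Alas2 and -0.22 for Slc4a1 over 5 libraries, so the relation of Alas2 rests on those libraries.

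**Figure D2:**
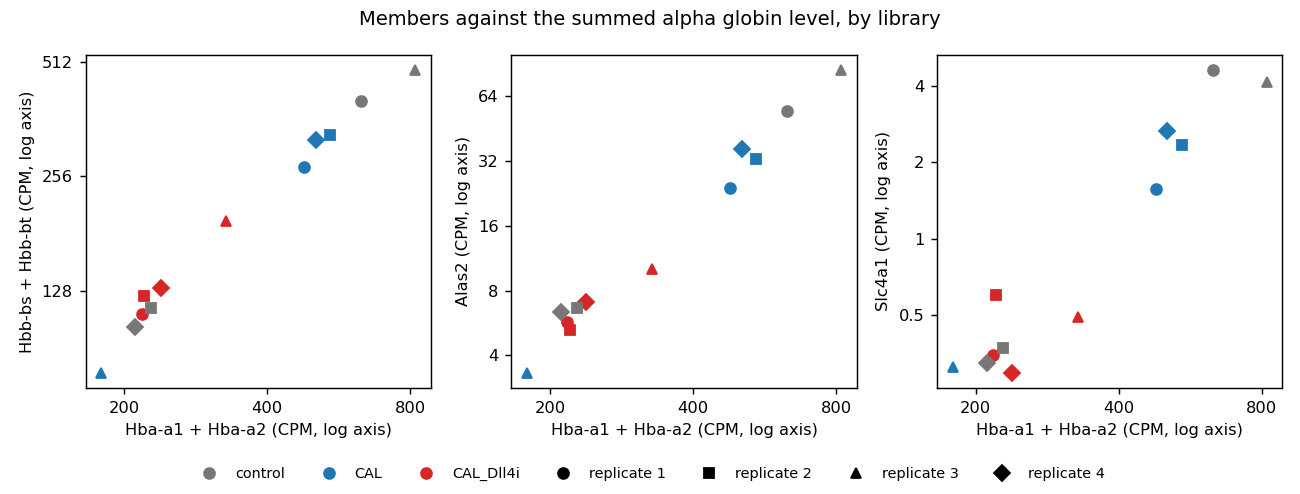
Summed beta globin, Alas2 and Slc4a1 (CPM, log axes) against summed alpha globin (CPM, log axis), 1 point per library, coloured by group. The 5 libraries at 478 to 820 CPM of alpha globin lie above the 7 at 179 to 328 CPM, and Slc4a1 shows no clear order among the 7.

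Adding ASC alone did not give a difference in these genes that passed the test. In CAL against control, 0 of 6 members were called by edgeR's quasi-likelihood test at a Benjamini-Hochberg adjusted p under 0.05 over all genes, where 0.00539% of all genes were called. DESeq2 and limma voom also called 0 members, where DESeq2 called 3.32% and voom 0.388% of all genes. At an unadjusted p under 0.05 all 3 tools counted 0 members, where edgeR placed 7.57% of all genes among the lower, DESeq2 7.89% and voom 8.53%. The groups overlapped for every member, while 3.75% of all genes were lower in CAL without overlap. The summed alpha copies had a log2 fold change of -0.15 ± 0.48 (SE, adjusted p = 0.918, edgeR). Hba-a1 had a log2 fold change of -0.18 (95% interval -1.24 to 0.88), and Hbb-bs one of -0.16 (-1.44 to 1.12). Alas2 had -0.66 (-2.65 to 1.32) and Slc4a1 -0.47 (-2.33 to 1.39). The sign of the globin estimates turned positive without control replicate 3 (0.26 for the alpha sum) or CAL replicate 3 (0.11). The alpha sum was positive without control replicate 1 too, at 0.024. Over all alternatives run, Hba-a2, Hbb-bs and Hbb-bt each kept their sign in 18 of 23, and Hba-a1 in 20 of 23.

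With Dll4 inhibition added to ASC, all 6 estimates were below 0 and none passed the test. Among all genes tested, 9041 of 18551 had estimates below 0 in this comparison. The 6 members moved together across libraries (Pearson r of log2 CPM 0.95 or more), so their shared sign is not 6 separate observations. In CAL_Dll4i against CAL, edgeR called 0 of 6 members and 0% of all genes, and DESeq2 and limma voom called 0 members, against 0.00539% and 0% of all genes. The summed alpha copies had a log2 fold change of -0.76 ± 0.48 (SE, adjusted p = 0.762, edgeR). Hba-a1 had a log2 fold change of -0.72 (95% interval -1.79 to 0.35), and Hbb-bt one of -0.87 (-2.18 to 0.44). Alas2 had -1.78 (-3.83 to 0.27) and Slc4a1 -1.99 (-3.99 to 0.02). CAL replicate 3, which had less of every globin than any CAL_Dll4i library, makes the groups overlap for all members, while 1.76% of all genes were lower in CAL_Dll4i without overlap. At an unadjusted p under 0.05 edgeR counted 0 members, limma voom 0 and DESeq2 2 (Alas2 and Slc4a1), where edgeR placed 2.95%, voom 4.93% and DESeq2 3.69% of all genes among the lower.

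The third comparison, CAL_Dll4i against control, gave the estimates farthest from 0, and again no member passed. It shares its libraries with the other two, so the 3 sets of values are not independent. edgeR called 0 of 6 members and 0% of all genes, and DESeq2 and limma voom called 0 members, against 0.329% and 0% of all genes. The summed alpha copies had a log2 fold change of -0.91 ± 0.48 (SE, adjusted p = 0.717, edgeR). Hba-a1 had a log2 fold change of -0.90 (95% interval -1.98 to 0.17), and Hbb-bt one of -1.03 (-2.34 to 0.28). Alas2 had -2.44 (-4.53 to -0.35) with an edgeR adjusted p of 0.714, and Slc4a1 had -2.45 (-4.47 to -0.43) with the same adjusted p. With voom and sample weights these estimates were nearer 0, at -0.79 for Alas2, -0.77 for Slc4a1 and -0.30 for the alpha sum, and without control replicate 3 that of the alpha sum was -0.51. At an unadjusted p under 0.05 edgeR counted these 2 members lower, against 3.06% of all genes. limma voom counted 0 members, against 6.14% of all genes, and DESeq2 counted 4 (also Hba-a1 and Hba-a2), against 3.47% of all genes. The lowest adjusted p of a member by DESeq2 was 0.191, for Slc4a1. Control replicates 2 and 4 lay within the range of the CAL_Dll4i libraries or below it for every member, so the groups overlapped, while 2.35% of all genes were lower in CAL_Dll4i without overlap.

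**Figure D3:**
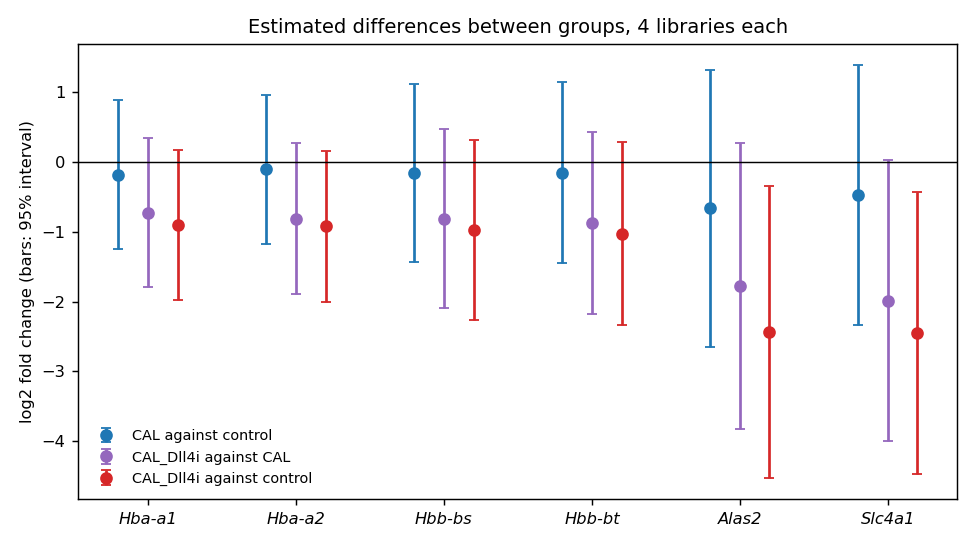
Log2 fold change of each gene with its 95% interval in 3 comparisons of 4 against 4 libraries, fitted by edgeR. All points lie below 0, for genes that moved together across libraries and so are not separate observations. The intervals that do not reach 0 are those of Alas2 (-4.53 to -0.35) and Slc4a1 (-4.47 to -0.43) in CAL_Dll4i against control, neither called after adjustment.

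Of 35 other genes known from red cells, 18 were in the table and tested, and the rest, such as Ahsp and Hbb-b1, were not analysed here. None was called in any comparison. At an unadjusted p under 0.05 edgeR counted 2 of 18 higher and 1 lower in CAL against control, 0 and 2 in CAL_Dll4i against CAL, and 1 and 7 in CAL_Dll4i against control. Among all genes, 7.57%, 2.95% and 3.06% were counted lower in these comparisons, and 7.01%, 4.47% and 3.86% higher. Their median log2 fold changes were -0.07, -0.12 and -0.08, against -0.0067, 0.0039 and -0.0015 for all genes. Of these 18 genes, 4 had the same top 5 libraries as globin, among them Bpgm (the enzyme that makes bisphosphoglycerate, which lowers haemoglobin's oxygen affinity) and Epb41 (protein 4.1 of the membrane skeleton). Bpgm stood at 24.8, 12.4, 31.2 and 13.6 CPM in the controls, at 17.7, 18.8, 12.6 and 18.7 CPM in CAL and at 11.5, 12.9, 11.8 and 13.2 CPM in CAL_Dll4i. Its groups overlapped, and its log2 fold change against control was -0.73 ± 0.26 (SE, edgeR adjusted p = 0.714) in CAL_Dll4i. It ranged over 2.72-fold in CPM.

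The most abundant red cell genes outside the members did not share the globin range. Epb41, with a mean of 142 CPM, Prdx2 (a peroxidase of red and other cells), with 82.8 CPM, and Tent5c (a poly(A) polymerase), with 27.4 CPM, ranged 1.34-fold, 1.24-fold and 2.90-fold in CPM between libraries. Summed over the 18 genes, CPM was 296 to 405 in control, 297 to 345 in CAL and 289.9 to 311 in CAL_Dll4i.

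Genes of the rest of the haem pathway, most of which every cell uses, varied little. The 11 tested genes ranged from 1.17-fold to 1.77-fold in CPM between the highest and the lowest library, and 0 were called. Alas1, the enzyme that carries out the step of Alas2 outside the erythroid line, had a mean of 413 CPM and ranged 1.32-fold. Tfrc, the transferrin receptor that takes up iron, and Fech, the enzyme that puts iron into haem, ranged 1.77-fold and 1.76-fold.

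Of erythroid transcription factors, 8 of 10 were tested, Gata1 and Klf1 were not analysed here, and 0 were called. Their most abundant members, Ldb1, Lmo2 and Zfpm1, which other cells express too, had means of 61.1, 24.9 and 9.05 CPM and ranged 1.23-fold, 1.39-fold and 1.25-fold. The median range of the 8 genes was 2.36-fold and the widest was 6.84-fold, for Nfe2, at a mean of 1.99 CPM.

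Genes that clear haemoglobin and haem were described for the same libraries, and 0 of 15 tested were called. The most abundant were Lrp1, a receptor that takes up haem bound to haemopexin, with a mean of 2792 CPM, and the ferritin chains Ftl1 and Fth1. Lrp1 and Fth1 ranged 1.30-fold and 1.29-fold in CPM between libraries. Hmox1, the enzyme that breaks down haem, ranged from 284 CPM in CAL replicate 4 to 596 CPM in CAL_Dll4i replicate 4. Cd163, the macrophage receptor for haemoglobin bound to haptoglobin, ranged from 2.08 CPM in CAL replicate 3 to 27.9 CPM in control replicate 3, and its next highest library was CAL_Dll4i replicate 3 at 15.6 CPM. Hmox1, Cd163 and Nfe2 were picked out after their values were seen. In the globin family outside red cells, Cygb (cytoglobin) ranged 1.41-fold and Adgb (androglobin) 2.59-fold, and 0 of 2 were called.

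Markers of other blood and vessel cells were set beside globin in the same libraries. Of the platelet list, 9 of 12 genes were tested and 0 called, and its summed CPM was 38.9 to 60.1 in control, 35.6 to 44.4 in CAL and 37.1 to 47.2 in CAL_Dll4i. Of these 9 genes, 2 had the top 5 libraries of globin: Itga2b, an integrin of platelets, and Tubb1, their tubulin, at 12 to 102 counts a library. Pf4, a platelet chemokine also made by macrophages, did not. Clec1b, a receptor of platelets, was highest in CAL replicate 3, at 3.12 CPM. Over the 9 genes Pearson r with summed globin (log2 CPM) ran from -0.44 to 0.89, with a median of 0.34. The 8 tested neutrophil genes had a summed CPM of 227 to 427 in control, 116 to 237 in CAL and 227 to 311 in CAL_Dll4i, and their Pearson r with summed globin (log2 CPM, 12 libraries that share depth and scaling) ran from -0.82 for Csf3r to -0.04. The 12 endothelial genes had a summed CPM of 388 to 489 in control, 290.3 to 447 in CAL and 359 to 425 in CAL_Dll4i, with r from -0.29 to 0.65. For 4 tested skeletal muscle genes r ran from 0.14 to 0.27. None of the neutrophil, endothelial, adipocyte or muscle genes was called or had the top 5 libraries of globin. The part of the platelet and neutrophil RNA in the globin pattern was not tested.

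The adipocyte genes were also set beside globin. The summed CPM of the 12 adipocyte genes was 1721 to 3027 in control, 3150 to 4112 in CAL and 2582 to 3087 in CAL_Dll4i. In CAL_Dll4i against CAL, 12 of 12 had estimates below 0 (median log2 fold change -0.49), as had 6 of 6 members and 9041 of 18551 genes tested. Of the 12, 6 were lower without overlap, against 1.76% of all genes. In CAL against control, 12 of 12 had estimates above 0 (median 0.81), where all 6 members had estimates below 0. Among all genes tested, 8980 of 18551 had estimates above 0 there and 9571 below 0. With voom and sample weights the 6 member estimates of that comparison were positive (0.34 to 0.89), so their sign is not settled. Their r with summed globin ran from 0.13 to 0.62 over the 12 libraries and from 0.51 to 0.79 after the group means were subtracted. These values, like those of the lists above, are a description and were not tested. The part of the adipocyte RNA share in the globin pattern was not tested.

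The genes most like globin were named by Pearson r between log2 CPM and the log2 CPM of summed globin over the 12 libraries. Since a few high libraries can drive them, these values are a description and were not tested. Among the 10 highest were Mrpl1 (0.92), Bpgm (0.91), Apol11b (0.90), Tubb1 (0.89), Gm41514 (0.87), Epb41 (0.86), Il17rd (0.86) and Adk (0.85). Of all tested genes, the 6 members included, 34 had r over 0.8 and 45 had r under -0.8. After the group means were subtracted, r was 0.94 for Apol11b and 0.82 or more for each of the others named. Mrpl1, a mitochondrial ribosomal protein, ranged over 1.23-fold in CPM and Adk, adenosine kinase, over 1.31-fold. Apol11b ranged over 20.7-fold at a mean of 1.11 CPM.

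**Figure D4:**
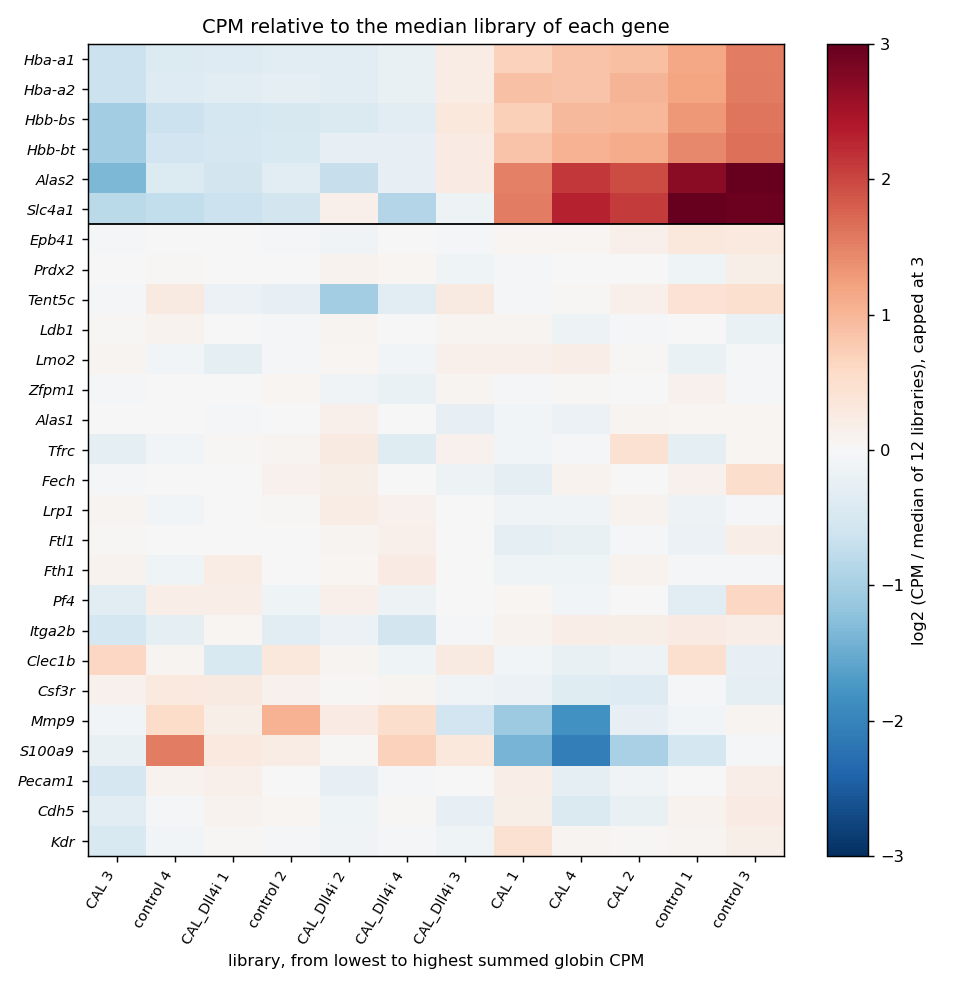
Log2 of CPM over the median of the 12 libraries, for the 6 members (above the line) and up to 3 of the most abundant tested genes of each of 7 lists, with libraries from lowest to highest summed globin CPM. The 5 libraries at the right are high in the members, and the genes of haem synthesis such as Alas1, which ranged 1.32-fold, stay near 0.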

How the data were processed

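RNA-seq of 12 adipose graft libraries was analysed, with total RNA taken by Trizol and libraries made with a SureSelectXT RNA Direct kit, per the labels' protocols. HISAT2, StringTie and mm10 are named per the submitters' processing notes, with no versions. Per the file headers, the deposited table holds estimated counts per gene, which are whole numbers not scaled between libraries, with FPKM and TPM values by the authors. The deposited TPM values served to compare levels between genes, and the deposited FPKM values were not analysed further. The sources used here do not give filters applied before deposit.

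The counts were tested with edgeR 4.0.16 (R 4.3.3): TMM scaling, filterByExpr at its defaults (18551 of 19547 genes), 1 coefficient per group over all 12 libraries, and a robust quasi-likelihood test with Benjamini-Hochberg adjustment over all tested genes, called at 0.05. CPM values are TMM-normalised. Interval bounds of a log2 fold change use the fit's degrees of freedom. The depth was 55883051 to 70804141 counts a library. Alternatives were RLE and upper-quartile scaling, scaling without the 6 genes, no filter and a filter of 1 CPM in 4 libraries, DESeq2 1.42.0, limma 3.58.1 voom with sample weights, a replicate block, summed globin copies, a fit of the compared groups alone, each library left out, libraries with Acta1 over 5 CPM left out, and a muscle covariate. The test code was tested on simulated data. Python 3.11.15 with matplotlib 3.10.9 drew the figures.

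The members, the 10 gene lists and the tests were chosen with earlier results of these data known. Named genes are the 6 members, up to 3 most abundant tested genes per list (and any called, of which there were 0), and the 10 with the highest Pearson r to summed globin, and a gene outside this rule is said to be so or serves only to check a label. Results for a few genes are left out.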

Additional observations from a re-analysis of the deposited data

Results flagged for a closer look

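In 4 of 75 groups of 4 libraries tested, 1 library lay far from the other 3, where chance gives about 1 in 20 such groups. Hba-a2 in CAL replicate 3 was low, at 77.7 CPM against 220.3 to 245 CPM in the other CAL libraries. The summed endothelial list in control replicate 3 was high, at 489 CPM against 388 to 392 CPM in the other controls. That library also held the most Hba-a1, at 465 CPM. The summed list of erythroid transcription factors in CAL replicate 1 was high, at 119 CPM against 104 to 105 CPM. The summed skeletal muscle list in CAL_Dll4i replicate 3 was high, at 354 CPM against 5.14 to 9.87 CPM, and that library was the highest of its group for Hba-a1, at 187 CPM. The causes were not tested.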

How the results depend on the processing

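The number of members called was 0 of 6 in each comparison under every alternative run. Of 492 alternative log2 fold changes, 465 kept their sign and 27 reversed, all in CAL against control and all without passing the test, and the cause was not tested. With voom and sample weights CAL against control gave 0.34 for Hba-a1, 0.39 for Hba-a2, 0.36 for the alpha sum, 0.41 for Hbb-bs, 0.42 for Hbb-bt, 0.48 for Alas2 and 0.89 for Slc4a1. When each library was left out in turn, that comparison ran from -0.42 to 0.23 for Hba-a1, -0.35 to 0.29 for Hba-a2, -0.39 to 0.26 for the alpha sum, -0.44 to 0.27 for Hbb-bs, -0.43 to 0.25 for Hbb-bt, -1.02 to 0.097 for Alas2 and -0.84 to 0.081 for Slc4a1. The libraries whose absence turned a sign were control replicates 1 and 3 and CAL replicate 3. Both comparisons of CAL_Dll4i stayed negative under every alternative. Against control, Alas2 ran from -2.76 (muscle covariate) to -0.79 (voom), Slc4a1 from -2.66 to -0.77 and the alpha sum from -1.19 to -0.30 under the same settings, and with a library left out they ran from -2.80 to -1.68, -2.82 to -1.90 and -1.16 to -0.51. Without control replicate 4, edgeR counted 5 members at an unadjusted p under 0.05 there, against 2 with all libraries. Without the 3 libraries with muscle RNA, the alpha sum stood at -0.60 against CAL and -1.07 against control.

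Same-numbered libraries did not deviate together: their 12 correlations ran from -0.39 to 0.14, 2 were over 0.1, and a library correlated best with its own number in 1 of 24 cases. With the replicate number as a block, 0 of 6 members were called in each comparison, and CAL against control gave 0.027 for the alpha sum, 0.064 for Hba-a2, 0.067 for Hbb-bs and 0.041 for Hbb-bt.

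Within groups, the SD of log2 CPM of the members reached 2.12 (Slc4a1 in control) with 4 libraries a group. Slc4a1 also rests on few counts, with 20 in its lowest library.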
